A study of Mus musculus with 10 samples.

Results

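Kl, Msx3, Tmem37, Aass and Nde1 are 5 genes whose signal in the mouse cochlea was lower after noise. They were chosen by that measured fall, the noise minus control differences on these same arrays, so those differences describe them and test nothing. They are 5 of the 8252 genes named on the array and were measured by 6 of its 12488 probe sets, of which 5 passed the filter on low values that left 8695 probe sets. The sixth, the other probe set of Tmem37, was too dim to be used in the fit.

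Cochlear RNA (dissected membranous labyrinth, per the labels) came from female mice aged 10 weeks, pooled from 8 mice for each array. Noise mice heard a 10 kHz octave band at 105 dB SPL, which lasted 1 h, and tissue was taken 6 h afterwards, whereas control mice had a sham session in the same chamber. The inbred strain 129X1/SvJ gave 3 arrays per condition, and B6.CAST, a strain on the C57BL/6J background, gave 2 per condition. The labels call the arrays of a group biological replicates, and for the third control and the third noise array of 129X1/SvJ they spell the strain 129XI/SvJ.

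Klotho (Kl) is a membrane protein that joins fibroblast growth factor receptors and makes them respond to FGF23, the hormone that governs phosphate and vitamin D. It is best known from kidney and choroid plexus, and its outer part is shed into blood by ADAM proteases. Aass is the mitochondrial enzyme that opens the breakdown of lysine through saccharopine. Msx3 is a homeobox repressor known from the dorsal neural tube, Nde1 binds LIS1 and the motor protein dynein and serves nuclear movement and mitosis, and Tmem37 is a membrane protein related to the gamma subunits of voltage-gated calcium channels.

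All 5 genes have an entry in the RefSeq promoter table (build GRCm38.p6). The 250 bases before each start are shown because the genes were lower together and the windows let their letters be compared. Capitals mark matches on either strand to the AP-1 site TGANTCA, the cAMP response half-site TGACG, the CCAAT box CCAAT and the TATA box TATAAA.
Kl, chr5:150952357-150952606, + strand: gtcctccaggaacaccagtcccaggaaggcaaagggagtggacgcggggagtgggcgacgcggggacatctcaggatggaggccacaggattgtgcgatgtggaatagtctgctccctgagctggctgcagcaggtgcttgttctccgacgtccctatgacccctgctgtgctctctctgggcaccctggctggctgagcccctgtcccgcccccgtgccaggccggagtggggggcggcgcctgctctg
Msx3, chr7:140049089-140049338, - strand: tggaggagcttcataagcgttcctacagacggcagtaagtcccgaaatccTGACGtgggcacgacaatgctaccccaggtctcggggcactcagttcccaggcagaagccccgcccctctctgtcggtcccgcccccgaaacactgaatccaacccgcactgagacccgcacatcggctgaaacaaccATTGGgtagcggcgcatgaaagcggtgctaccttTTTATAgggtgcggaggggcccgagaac
Aass, chr6:23132987-23133236, - strand: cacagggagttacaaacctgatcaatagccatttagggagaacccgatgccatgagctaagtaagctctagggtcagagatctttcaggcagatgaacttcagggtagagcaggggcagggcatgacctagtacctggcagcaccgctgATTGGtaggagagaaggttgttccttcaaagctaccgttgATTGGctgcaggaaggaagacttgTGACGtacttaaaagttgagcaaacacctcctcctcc
Nde1, chr16:14163025-14163274, + strand: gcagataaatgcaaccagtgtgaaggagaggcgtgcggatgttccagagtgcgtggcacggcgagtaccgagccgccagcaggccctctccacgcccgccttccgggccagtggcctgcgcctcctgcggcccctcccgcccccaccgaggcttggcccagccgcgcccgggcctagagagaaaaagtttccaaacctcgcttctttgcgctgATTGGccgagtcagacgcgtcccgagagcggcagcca
Tmem37, chr1:120073781-120074030, - strand: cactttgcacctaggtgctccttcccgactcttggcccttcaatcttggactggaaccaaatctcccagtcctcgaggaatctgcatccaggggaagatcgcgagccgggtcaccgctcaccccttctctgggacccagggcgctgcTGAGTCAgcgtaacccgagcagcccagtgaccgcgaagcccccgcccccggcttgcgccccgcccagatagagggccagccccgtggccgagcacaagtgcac

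The CCAAT letters were present in 3 of the 5 windows (Msx3, Aass and Nde1), against 33.8% of 32851 promoter windows of the same length. The AP-1 letters were present only in the window of Tmem37, against 6.75% of all windows. The half-site TGACG was found in those of Msx3 and Aass (17.8% of all windows), and the TATA box only in that of Msx3 (12.4%). The GC box GGGCGG, not capitalised, was present in 4 of 5, all but Aass, against 32.7%. The E-box CANNTG was found in 3 of 5 (66.2%) and the Egr site GCGNGGGCG in 0 of 5 (4.70%). No letters searched were shared by all 5. The GC content of the windows was 50% for Aass, 60% for Msx3, 65.2% for Tmem37, 66.8% for Kl and 67.2% for Nde1, against a median of 52.4% over all windows. These matches are letters in a window and were not measured as binding.

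Among the arrays, correlations marked the first noise array of 129X1/SvJ as standing apart, with a mean of 0.910 against the other arrays, which themselves had means of 0.943 to 0.955. The Gapdh control probe sets had a 3′ to 5′ ratio, a sign of RNA quality, of 29.2 on 129X1/SvJ control 2 and 6.94 on B6.CAST noise 1, against 0.790 to 1.40 elsewhere. Some bright inner ear markers were present on every array. Signals ran from 12604 to 20801 for Coch of the spiral ligament and from 6962 to 15272 for Dct of stria melanocytes. For Ocm of hair cells they ran from 1800 to 3727. Some other markers of the stria were too dim for the filter on low values. In these bulk samples, fewer cells of a type and less RNA per cell cannot be told apart.

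Klotho was lower after noise in both strains, and in B6.CAST its difference was the largest of the 5 genes. In 129X1/SvJ its signal intensities were 1417, 2047 and 1236 on the control arrays and 738.9, 523.9 and 674.2 on the noise arrays. In B6.CAST they were 908.7 and 753.4 in control and 444.1 and 546.0 after noise. In neither strain did the groups overlap, and the noise mean was 41.2% of the control mean in 129X1/SvJ and 59.6% in B6.CAST. On the log2 scale the difference was -1.23 ± 0.20 in 129X1/SvJ (SE, n = 3 noise and 3 control arrays) and -0.72 ± 0.25 in B6.CAST (n = 2 and 2). In B6.CAST it was -0.61 without noise 1, the array with the Gapdh ratio of 6.94, and -0.83 without noise 2. Leaving out control 1 gave -0.58 and leaving out control 2 gave -0.85. Control arrays of 129X1/SvJ had the highest Kl, followed by control B6.CAST, noise-exposed 129X1/SvJ and noise-exposed B6.CAST. Only the first and second place of this order were separated without overlap of arrays.

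The highest Kl value came from the array with the Gapdh ratio of 29.2, and that array also held markers of choroid plexus, an epithelium of the brain ventricles that is rich in klotho. Its signal of Ttr, the transthyretin gene and the main product of choroid plexus, was 6252, against 177.9 to 371.8 on the 9 other arrays. The folate receptor gene Folr1 was at 592.9 there, against 33.1 to 148.6, and the bicarbonate transporter gene Slc4a5 at 182.7, against 1.10 to 16.3. The other 2 measured markers of the 5 on the array, Cldn2 (15.9) and Igfbp2 (4661), lay within the range of the other arrays there. The summed signal of the 5 was 4042 to 11705 in control and 4636 to 5328 in noise-exposed 129X1/SvJ, and 3618 to 3787 and 4073 to 4151 in B6.CAST. Without this array the Kl difference in 129X1/SvJ was -1.04 ± 0.20 (n = 3 noise and 2 control arrays), and the noise arrays remained below both other control arrays. In B6.CAST, where Kl was also lower after noise, Ttr signals were 224.9 and 291.5 in control and 177.9 and 203.5 after noise. Those of Folr1 were 100.9 and 126.0 in control and 114.7 and 148.6 after noise. The part of choroid plexus tissue in the Kl values was not tested.

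**Figure D1:**
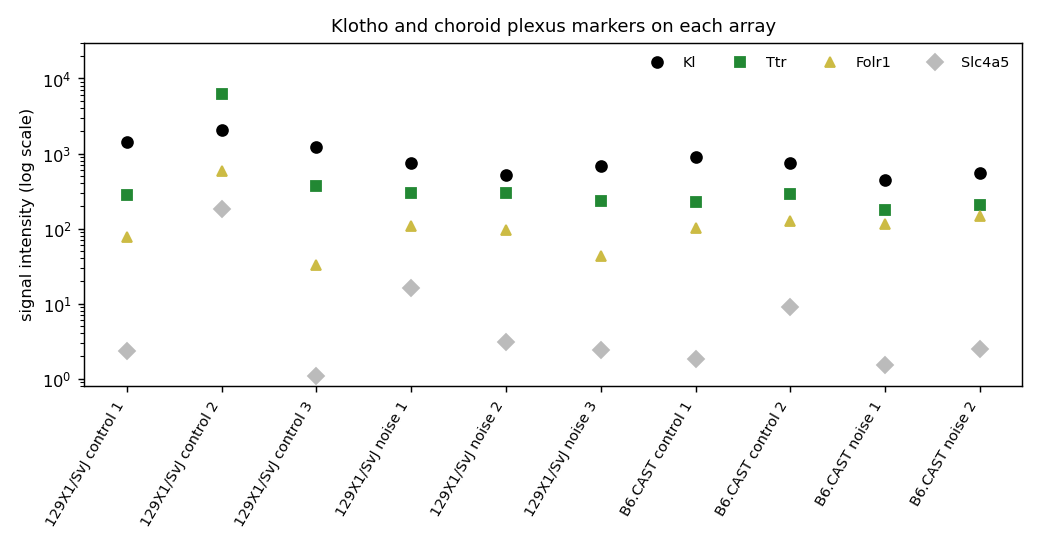
Signal intensity (log scale) of Kl and of the choroid plexus markers Ttr, Folr1 and Slc4a5 on each of the 10 arrays. The second control array of 129X1/SvJ has Ttr at 6252 and the highest Kl, at 2047. On the remaining arrays Ttr is between 177.9 and 371.8. Kl is lower with noise in both strains. In B6.CAST the mean of Ttr is also lower after noise, and that of Folr1 is higher.

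Msx3 showed the deepest fall of the 5 genes in 129X1/SvJ, and the largest relative to the spread of its arrays (12.4 pooled SDs). Its signals there were 945.9, 1161 and 1032 in control and 397.9, 415.1 and 401.7 after noise, which is 38.7% of the control mean. The noise arrays lay close together, at log2 differences of -1.38, -1.26 and -1.37 from the control mean, and the group difference was -1.34 ± 0.16 (SE, n = 3 and 3). In B6.CAST the signals were 735.0 and 866.9 in control and 583.5 and 748.7 after noise. Here the groups overlapped, and the difference was -0.26 ± 0.19 (n = 2 and 2). It was -0.11 without B6.CAST noise 1, the array with the Gapdh ratio of 6.94, -0.16 without control 2 and -0.42 without noise 2. Msx3 was highest in control 129X1/SvJ and lowest in noise-exposed 129X1/SvJ, with both B6.CAST groups between, and both ends of the order were separated from their neighbours without overlap.

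Aass fell in 129X1/SvJ from signals of 4950, 4556 and 3677 to 1759, 1983 and 2550. The noise mean was 47.7% of the control mean and the difference was -1.04 ± 0.16 (SE, n = 3 and 3). The third noise array, at -0.75 from the control mean, was the least changed, against -1.24 and -1.12 on the others. In B6.CAST the Aass signals were 5142 and 4753 in control and 4852 and 3890 after noise. The deposited intensities of these groups overlapped, while after normalization they were 0.04 apart, and the difference was -0.21 ± 0.20 (n = 2 and 2). It was -0.32 without B6.CAST noise 1 and -0.10 without noise 2. In order of level, control B6.CAST, control 129X1/SvJ and noise-exposed B6.CAST each overlapped the next, and noise-exposed 129X1/SvJ lay apart below them.

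Nde1 fell from 1666, 1869 and 1444 to 914.7, 933.1 and 1114 in 129X1/SvJ, to 59.5% of the control mean. The difference was -0.72 ± 0.13 (SE, n = 3 and 3). In B6.CAST its signals were 1642 and 1746 in control and 1408 and 1446 after noise, a log2 difference of -0.24 ± 0.16 (n = 2 and 2). The B6.CAST groups did not overlap, and each pair of arrays lay within an SD of 0.03 on the log2 scale. With so few arrays, that SD is itself poorly known.

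Tmem37 had the smallest difference of the 5 genes in 129X1/SvJ and the smallest gap between the strains. Its bright probe set, whose name carries the suffix for probes that may match related transcripts, gave 4171, 3720 and 4305 in control and 2604, 2775 and 2750 after noise in 129X1/SvJ. In B6.CAST it gave 3636 and 4456 in control and 3047 and 3005 after noise. The groups were apart in both strains, with noise means at 66.7% of control in 129X1/SvJ and 74.8% in B6.CAST. The log2 difference was -0.56 ± 0.12 in the former (SE, n = 3 and 3) and -0.42 ± 0.14 in the latter (n = 2 and 2), where it was -0.28 without control 2. The dim probe set of the same gene ranged from 2.90 to 21.4 over all arrays, under the floor of 42.9 set by the filter, and its direction was not read.

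**Figure D2:**
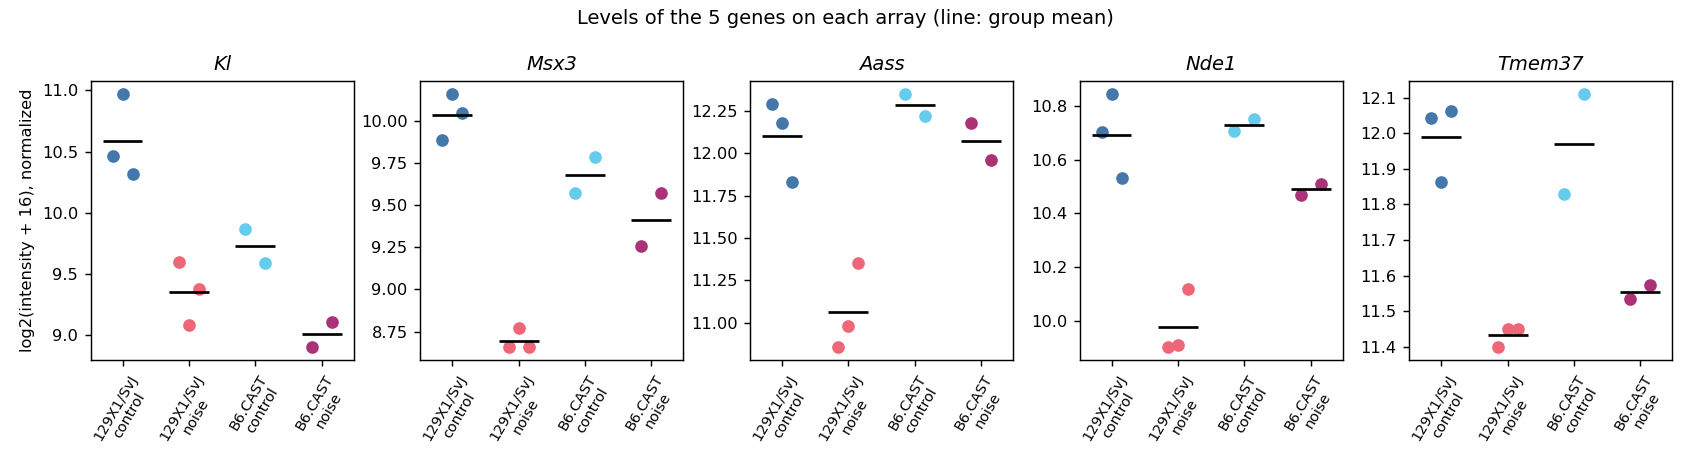
Normalized log2(intensity + 16) of the 5 genes on each array by strain and condition, with a line at each group mean and a separate vertical axis for each gene. The 129X1/SvJ noise arrays lie below all 129X1/SvJ control arrays for all 5 genes, while in B6.CAST the groups of Msx3 touch and those of Aass are 0.04 apart.

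Set side by side, the 5 falls differed in size and steadiness. In 129X1/SvJ each of the 9 pairs of a noise and a control array had the noise array lower, for all 5 genes, and the groups of 9.63% of all tested probe sets were apart in that direction. The smallest fall in any such pair was 1.12 for Msx3, 0.72 for Kl, 0.48 for Aass and 0.41 for Nde1 and Tmem37. In B6.CAST all 4 pairs were lower with noise for Kl, Aass, Nde1 and Tmem37 and 3 of 4 for Msx3, where the last was a tie after normalization. In that strain 13.8% of all tested probe sets were apart in that direction. The difference was below 0 in both strains for all 5 genes and for 30.3% of all tested probe sets. Since the genes were chosen for lower values, nothing is read from these counts.

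**Figure D3:**
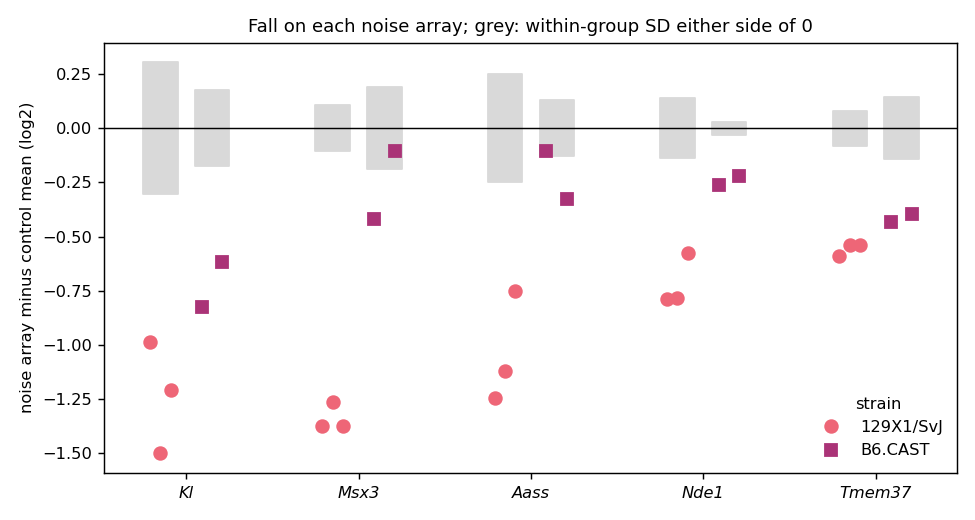
Difference of each noise array from the mean of the control arrays of its strain (log2) for the 5 genes, with grey bars 1 pooled within-group SD either side of 0. All 5 genes lie below their grey bar on all 129X1/SvJ noise arrays (Msx3 from -1.38 to -1.26), and in B6.CAST both noise arrays lie below it for Kl, Nde1 and Tmem37.

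In limma, Msx3, Kl, Aass and Nde1 were the 4 probe sets called lower with noise in 129X1/SvJ (0.046% of those tested), and Msx3, Kl and Tmem37 were 3 of the 4 called lower in the mean of both strains (0.046%). In B6.CAST alone, 0 of 5 passed in limma (0% of all were called lower), and 183 probe sets (2.1%) had an unadjusted p under 0.05. These contrasts chose the genes. By size of fall in 129X1/SvJ, Msx3 was 7th of 8695, Kl 12th, Aass 41st, Nde1 235th and Tmem37 522nd. Ordered by p, the falls just past the 4 called ones in 129X1/SvJ were Aldh2 (-0.77 ± 0.16), an aldehyde dehydrogenase, Gstt1 (-0.82 ± 0.17), a glutathione transferase, Kazald1 (-0.78 ± 0.16) and then Tmem37. In the mean of both strains, the remaining called fall was Ndp, the norrin gene, at -0.78 ± 0.14, and the next past the called ones were Fah (-0.65 ± 0.13), an enzyme of tyrosine breakdown, and Aass (-0.63 ± 0.13). Without single arrays the number of the 5 that passed in 129X1/SvJ was 1 without its control 1, control 2 or noise 2, 2 without its noise 1 or noise 3, and at most 3 without any other array. In the mean of both strains it was 0 without B6.CAST control 1, control 2 or noise 1, and 1 without B6.CAST noise 2 or the first or second control array of 129X1/SvJ.

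The fall was smaller in B6.CAST than in 129X1/SvJ for all 5 genes, by 1.07 ± 0.25 for Msx3, 0.82 ± 0.25 for Aass, 0.51 ± 0.32 for Kl, 0.48 ± 0.21 for Nde1 and 0.14 ± 0.18 for Tmem37 (log2, SE). Picking genes by their fall in 129X1/SvJ favours this direction, so these values are a description. Over all probe sets, 0 of 8695 passed for this difference in limma (0%). An unadjusted p under 0.05 was found for 258, only 2.97% of those tested.

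Without the first noise array, which stood apart from the others, the falls in 129X1/SvJ were -1.35 for Kl, -1.33 for Msx3, -0.93 for Aass, -0.68 for Nde1 and -0.54 for Tmem37. Without the second control array they were -1.27 for Msx3, -1.002 for Aass, -0.64 for Nde1 and -0.62 for Tmem37, beside -1.04 for Kl. Summed markers of some cell types also differed between control and noise arrays. The summed signal of 6 spiral ligament markers was 43012 to 48722 in control and 35770 to 40067 in noise-exposed 129X1/SvJ, and 53926 to 55251 and 47061 to 51577 in B6.CAST, with 4 of the 6 below 0 in 129X1/SvJ and 6 in B6.CAST. That of 6 Schwann cell and myelin genes was 26883 to 29673 and 23964 to 24980 in 129X1/SvJ and overlapped in B6.CAST (25429 to 29795 and 24269 to 29777). In 129X1/SvJ only 3 of these 6 were below 0, and the sum followed mainly S100b, with mean signals of 14769 in control and 11239 after noise. That of 12 stria vascularis markers overlapped in both strains, with 23767 to 25766 and 22698 to 25182 in 129X1/SvJ and 31121 to 31405 and 30792 to 33383 in B6.CAST. For dividing cells, beside Nde1, 13 genes summed to 2338 to 3829 in control and 3141 to 5217 in noise-exposed 129X1/SvJ, and to 2225 to 3852 and 2541 to 2678 in B6.CAST. Neutrophil genes, 10 on the array, summed to 3457 to 21027 and 12281 to 36393 in 129X1/SvJ and to 5939 to 19333 and 2360 to 2638 in B6.CAST. The part of these cells in the falls was not tested.

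The difference between strains, averaged over control and noise arrays with equal weight, was not used in picking the genes. Its estimate shares no error with the noise differences when arrays vary alike, but its SE and p rest on the same estimate of spread. Picking by the noise differences can favour genes of small spread, so the p-values of the strain test may be too small. Among all tested probe sets, the spread within groups ranked at percentile 3.45 for Tmem37, 4.77 for Nde1, 9.74 for Msx3, 32.1 for Aass and 47.9 for Kl. The strain differences within control and within noise arrays do share error with the noise differences, so they are given as a description. Of the 5 genes, 1 passed in limma, against 3.24% of all tested probe sets (with B6.CAST the higher strain in 2.08% and the lower in 1.16%). Aass was higher in B6.CAST by 0.60 ± 0.13 (SE, n = 4 and 6 arrays, limma adjusted p = 0.0253), and its adjusted p ranged from 0.0111 to 0.16 over the alternatives run. The averaged value joins a difference of 0.18 ± 0.18 between control arrays, where the strains overlapped, and of 1.01 ± 0.18 between noise arrays, where both B6.CAST arrays were above all 3 of 129X1/SvJ. The call of Aass was lost without control 3 or noise 2 of 129X1/SvJ and without any of the 4 arrays of B6.CAST, with differences of 0.53 to 0.65 in these fits.

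Klotho was lower in B6.CAST by 0.60 ± 0.16 and did not pass (limma adjusted p = 0.0709, interval -0.96 to -0.25 at 95%). It was lower in B6.CAST in control (-0.86 ± 0.23) and after noise (-0.35 ± 0.23). Without the array that held the choroid plexus markers, the averaged difference was -0.51 ± 0.15 (limma adjusted p = 0.143). Nde1 was at 0.27 ± 0.11 (limma adjusted p = 0.235), Msx3 at 0.18 ± 0.12 with an interval of -0.09 to 0.45 (0.545) and Tmem37 at 0.05 ± 0.09 with an interval of -0.15 to 0.25 (0.837). For Msx3 the small average hides opposite signs, with B6.CAST 0.36 ± 0.18 lower among control arrays and 0.72 ± 0.18 higher among noise arrays.

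**Figure D4:**
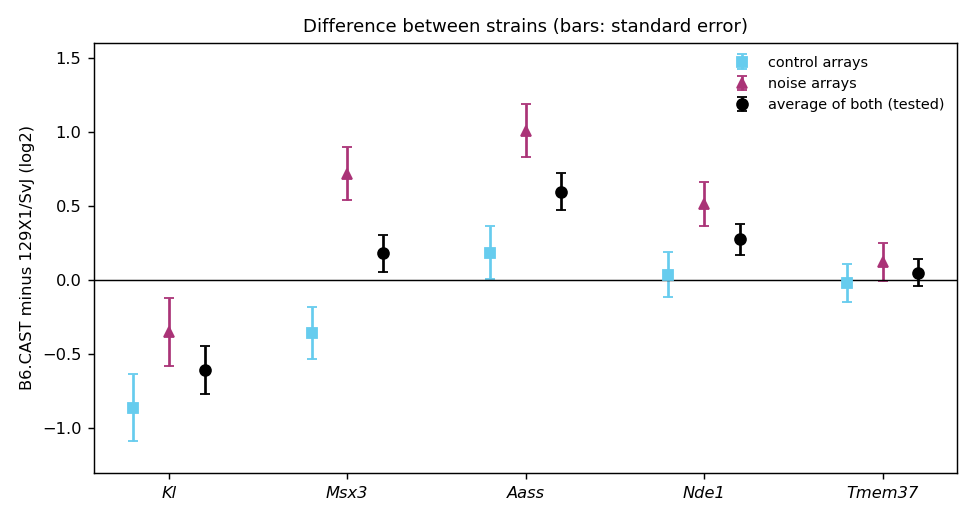
B6.CAST minus 129X1/SvJ (log2) for the 5 genes among control arrays, among noise arrays and averaged over both, with bars of 1 standard error from the limma fit. Aass passed in the average (0.60 ± 0.13), the difference given with a test, and for Msx3 the control and noise values lie on opposite sides of 0.

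Shapes over the 10 arrays were compared by the root mean square distance between log2 profiles scaled to the same mean and SD, which is 0 for the same shape and 2 for a mirror image. All genes picked for a fall share part of their shape by that choice. Aass and Nde1 were the closest pair of the 5, at 0.29, with 3 probe sets closer to Aass. Msx3 and Nde1 were at 0.41. Kl and Aass were the farthest apart, at 1.12, with 1632 probe sets closer to Kl than Aass was.

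Of other genes, the profile nearest to Kl was that of Mrvi1 (distance 0.25), with noise differences of -0.94 ± 0.24 and -0.40 ± 0.29 in 129X1/SvJ and B6.CAST, followed by Fah (0.32), with -0.65 ± 0.16 and -0.65 ± 0.20. Cdkn1c, an inhibitor of the cell cycle (0.32), and Antxr2, an anthrax toxin receptor (0.42), came next. Nearest to Aass was Decr1, a mitochondrial enzyme of fatty acid breakdown (0.23), at -0.91 ± 0.25 and -0.23 ± 0.31, followed by Sec61a1, a subunit of the translocation channel of the endoplasmic reticulum (0.27), Apip (0.28) and Nde1. Nearest to Nde1, after Aass, were Apip, an enzyme of methionine salvage (0.31), the crystallin gene Cryl1 (0.31) and Sec61a1 (0.32). Msx3 had Nde1, Cdadc1 (0.42), Mycbp2 (0.43) and Dnajc4 (0.45) as its nearest, of which Mycbp2 had differences of only -0.31 ± 0.12 and -0.02 ± 0.15. Nearest to Tmem37 were Actn1, an actin crosslinker on a probe set open to related genes (0.28), Gstt1 (0.50), Msx3 (0.50) and Golph3l (0.52). These likenesses are descriptions over 10 arrays and carry no test.

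Partners of the 5 genes were read from lists of their pathways, and of 71 different genes tested in these lists, 1 passed with noise in 129X1/SvJ, as higher (1 of 71, against 0.506% of all probe sets). For B6.CAST the count was 0 of 71 in limma (0.046% of all probe sets), and for the mean of both strains it was also 0 of 71 (0.46%). An unadjusted p under 0.05 was found in limma for 12 of the 71 genes in 129X1/SvJ (16.9%, against 11.5% of all probe sets). It was found for 2 in B6.CAST (2.82%, against 2.1%) and for 8 in the mean (11.3%, against 7.63%). For klotho, 12 of 30 genes of FGF23 signalling and mineral transport were tested and 0 passed with noise. Their median difference was 0.01 in 129X1/SvJ and 0.06 in B6.CAST, beside medians of -0.04 and 0.01 for all probe sets. Fgfr1, the receptor that klotho joins, was at 0.43 ± 0.16 and 0.54 ± 0.20, on a probe set open to related genes, and the phosphate transporter gene Slc20a1 at 0.71 ± 0.20 and 0.11 ± 0.24, neither of which passed. Adam10, a protease that sheds klotho, was at -0.35 ± 0.27 and -0.23 ± 0.33. Fgf23 and the vitamin D receptor gene Vdr did not enter the test.

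Among feedback targets of FGF receptors, Egr1 passed in 129X1/SvJ, at 2.20 ± 0.41 (limma adjusted p = 0.0454), and was at 1.08 ± 0.50 in B6.CAST, where it did not pass. The call was lost without any 129X1/SvJ control array, B6.CAST control array or B6.CAST noise 1, with differences of 1.64 to 2.50 over all 10 left-out fits and limma adjusted p up to 0.181. Egr1 is also an immediate early gene of many other signals. Dusp6, a phosphatase that dampens ERK, was at 0.55 ± 0.23 and 0.63 ± 0.28. Of the 7 genes tested in this list, 5 were above 0 and 2 below in 129X1/SvJ. In B6.CAST 7 were above and 0 below, and 0 passed. Over all tested probe sets, 55.0% were below 0 in 129X1/SvJ and 48.8% in B6.CAST.

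For Aass, 12 of 21 genes of lysine breakdown were tested, and 10 were below 0 in 129X1/SvJ and 8 in B6.CAST, with 0 passing (medians -0.28 and -0.13). Among all tested probe sets, 55.0% were below 0 in 129X1/SvJ and 48.8% in B6.CAST. Aldh7a1, which oxidises the aldehyde that Aass leaves, was at -0.45 ± 0.17 in 129X1/SvJ and -0.25 ± 0.21 in B6.CAST. Echs1, an enoyl-CoA hydratase, was at -0.26 ± 0.15 and -0.31 ± 0.19. Several enzymes of this list, Echs1 among them, also serve fatty acid breakdown and are not particular to lysine. Aldh7a1 was also higher in B6.CAST in the averaged strain difference, by 0.58 ± 0.13 (limma adjusted p = 0.0383), the direction that Aass had. Its probe set is of a type that can also bind related transcripts. This call was lost without 6 of the 10 arrays in turn (129X1/SvJ control 1, control 3 and noise 2, and B6.CAST control 2, noise 1 and noise 2), with differences of 0.475 to 0.67 over all 10 and adjusted p up to 0.192 in limma.

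For Msx3, 17 of 29 Msx relatives and BMP signalling genes were tested and 0 passed with noise. The related homeobox gene Msx1 was at -0.68 ± 0.27 in 129X1/SvJ and 0.26 ± 0.33 in B6.CAST. Smad1, a mediator of BMP signals, was at 0.33 ± 0.16 and 0.26 ± 0.20, and Id1, a BMP target, at 0.52 ± 0.20 and 0.12 ± 0.24. For Nde1, 18 of 30 genes of dynein, dynactin and LIS1 partners were tested and 0 passed with noise. Ndel1, the close relative of Nde1, was at 0.22 ± 0.12 and 0.13 ± 0.14, and Pafah1b1, which encodes LIS1, at 0.27 ± 0.13 and -0.03 ± 0.16. The dynactin gene Dctn6 was at -0.36 ± 0.14 and -0.07 ± 0.18 with noise and passed in the averaged strain difference, higher in B6.CAST by 0.54 ± 0.11 (limma adjusted p = 0.0245). The dynein light chain gene Dynll1 passed there as lower, at -0.39 ± 0.09 (limma adjusted p = 0.0484), on a probe set open to related genes. The Dctn6 call was lost without 129X1/SvJ control 3 or noise 2 and without any B6.CAST array (differences of 0.50 to 0.59 over all 10 left-out fits, limma adjusted p up to 0.115). That of Dynll1 was lost without any array but 129X1/SvJ control 1 and noise 1 (-0.45 to -0.32, limma adjusted p up to 0.242). In all, 3 of 71 genes passed in that comparison, near the 3.24% of all probe sets. For Tmem37, 5 of 26 calcium channel subunit genes were tested and 0 passed with noise, among them Cacng2, a gamma subunit, at 0.56 ± 0.27 and 0.04 ± 0.33, and Cacna2d3 at -0.36 ± 0.18 and -0.05 ± 0.22.

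**Figure D5:**
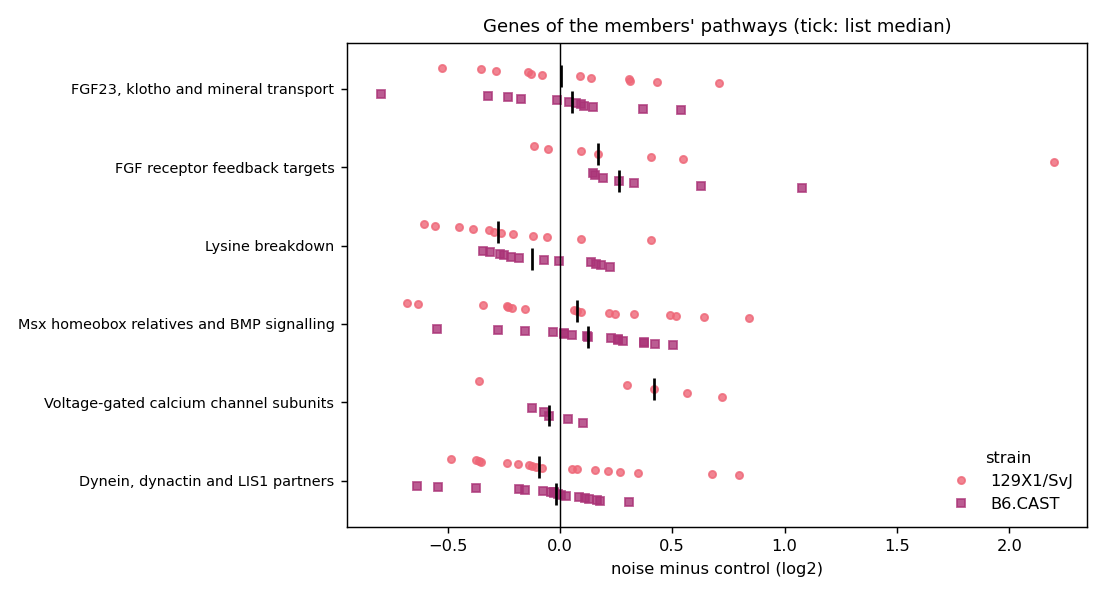
Noise minus control (log2) of the tested genes of 6 pathway lists in 129X1/SvJ (circles) and B6.CAST (squares), with a tick at each list's median. The list medians run from -0.28 (lysine breakdown) to 0.42 (calcium channel subunits) in 129X1/SvJ and from -0.13 to 0.26 in B6.CAST. Egr1 at 2.20 is the only gene that passed.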

How the data were processed

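Biotin-labelled cRNA was hybridised to GeneChip arrays, 1 sample per array, per the labels' protocols. The authors deposited linear signal intensities per probe set, already scaled array by array (means without the lowest and highest 2% of 500.268 to 500.304). The scanning and summary software is not given in the sources used here. The number of arrays limits the precision. Gene names came from the platform annotation (10855 probe sets with 1 gene, 396 with several, 1237 with none), updated through RefSeq for 10839.

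From these, log2(intensity + 16) was quantile normalized, control probe sets and the dimmest 30% were left out, and 4 group means were fitted to 10 arrays in limma 3.58.1 (R 4.3.3) with a variance trend and Benjamini-Hochberg adjustment at 0.05. Errors are standard errors of that fit. The fit was tested on simulated data. The p-values measure the spread between pools of mice. Members, lists and tests were chosen with earlier results of these data known. Named genes are all members, the list genes that passed (or the 2 of smallest p) and the 4 nearest profiles. Adam10, Dusp6, Grb2, Sos1, Msx1, Pafah1b1 and, among the falls, Ndp, Aldh2, Gstt1, Kazald1 and Fah were named after their values were seen. The brightest probe set stood for each gene.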

Additional observations from a re-analysis of the deposited data

How the results depend on the processing

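The noise differences of the 5 genes kept their sign under every alternative run. Because these differences on the same arrays picked the genes, the kept signs are a description and test nothing. Their median in 129X1/SvJ was -1.04, and -1.19 with equal medians of log2 values, -1.32 without both arrays spelled 129XI/SvJ and -1.19 to -0.93 when each array was left out. In B6.CAST it was -0.26, and -0.42 to -0.26 when each array was left out, where a group of 1 array is assumed to vary like the others. Equal medians moved the median of all probe sets in 129X1/SvJ to -0.11. The averaged strain difference of Tmem37 (0.05) reversed to -0.0192 without B6.CAST control 2 and was -0.0192 to 0.12 when each array was left out.

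Of the 5 genes, 1 passed for the strain (Aass), and 0 passed with equal medians, without the variance trend, with the replicate block (as with its numbers crossed in B6.CAST) and when 129X1/SvJ control 2 and B6.CAST noise 1, which had high Gapdh ratios, were left out together. That setting and the crossing were added after seeing the data. It was 0 to 1 when each array was left out. Pathway genes that passed for the strain numbered 3, and 1 with equal medians, without a filter, without the trend, with crossed numbers and without the 129XI/SvJ arrays, 5 with array weights, 0 with the replicate block and without the high-ratio arrays, and 0 to 4 when each array was left out. The 1 pathway gene of noise in 129X1/SvJ became 0 without a filter, without the trend, with that strain alone, with both blocks and without either pair of arrays, and 0 to 1 when each array was left out. In the mean of both strains it was 1 without quantile normalization, with equal medians and with array weights, and 0 to 1 when each array was left out. The noise calls among the 5 genes also changed. In 129X1/SvJ they numbered 4 in the main fit, and 3 without quantile normalization and with equal medians. They fell to 1 without the trend, with that strain alone, with both blocks and without the 129XI/SvJ arrays. For the mean of both strains 3 were called. That became 1 without the trend, with the replicate block and without the 129XI/SvJ arrays, 0 with crossed numbers and 5 with array weights. Deviations of same-numbered arrays from their group means had correlations of -0.39 to -0.15. With 2 or 3 arrays a group, such deviations are tied to each other by the group mean. The correlations therefore cannot decide whether the numbers pair arrays, and the main fit used no pairing. Over all probe sets, calls ranged from 17 to 71 around 44 in 129X1/SvJ (1 to 18 lower, around 4), from 0 to 7 around 4 in B6.CAST, from 10 to 54 around 40 in the mean (0 to 8 lower, around 4) and from 137 to 418 around 282 for the strain. The cause of these changes was not tested. With 2 arrays a group, B6.CAST limits the precision most.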
